A study of Mus musculus with 16 samples.

Results

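The genes described here are 45 components of BMP and TGF-β signaling, out of 55249 named genes in the expression tables of differentiating mouse neural stem cells (NSC). They were chosen by symbol from a list of ligands, receptors, SMAD proteins, *Id* targets, secreted antagonists, latent TGF-β binding proteins and intracellular inhibitors, and all 45 were found, each on 1 line per table. The cells came from pooled C57BL/6 cortices of embryonic days 15 to 16 and grew as monolayers in medium with B27, 5% fetal calf serum and bFGF. In all groups a lentivirus delivered a U6-driven shRNA, either a scrambled control (labelled scr shRNA or ctrl; here shCON) or a single shRNA against the lncRNA *RUS* (*Gm20754*; labelled RUS KD; here shRUS). bFGF was withdrawn on day 5, and polyA RNA was sequenced from 4 libraries per group on day 5 and on day 7, 16 libraries in total. The labels do not say whether the 4 libraries of a group came from separate cultures, so p-values measure the spread between these libraries, which may be technical. With 1 shRNA per arm, the effect of losing *RUS* and any other effect of that shRNA cannot be told apart.

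BMPs and TGF-βs are secreted ligands that bring together type I and type II receptor kinases. BMP receptors phosphorylate SMAD1, SMAD5 and SMAD9, TGF-β and activin receptors phosphorylate SMAD2 and SMAD3, and both sets enter the nucleus with SMAD4. In the developing cortex BMP signaling induces the *Id* genes, whose products block proneural bHLH factors, and is known for promoting astrocyte over neuron formation. Noggin, chordin and related proteins trap BMPs outside the cell, follistatin traps activin, and TGF-β is held in the matrix by latent TGF-β binding proteins.

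All levels below are TPM rescaled by 1 factor per library over the 16 libraries (scaled TPM). TPM divides by transcript length, so levels can be compared between genes. Fold changes are differences of log2(scaled TPM + 0.1) fitted with limma, with factors set within each day for the knockdown comparisons, and a call is an adjusted p under 0.05 (Benjamini-Hochberg over all genes tested, two-sided). The files hold no read counts, so the depth behind each value is unknown.

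Some features of the series touch the results. *Gm20754*, the target of the knockdown, stood on day 5 at 0.24, 0.11, 0.18 and 0.16 TPM in shCON and at 0.05, 0, 0.12 and 0.32 in shRUS, and on day 7 at 0.70, 0.72, 0.26 and 0.54 against 0.54, 0.38, 0 and 0.04. Its mean in shRUS was 71.0% of the shCON mean on day 5 and 43.2% on day 7, and neither difference passed (exact permutation test, two-sided, p = 0.543 and 0.143, n = 4 per group). The day 5 library labelled shRUS 4 was above every day 5 control and so went against its label. Day 7 shRUS libraries 1 and 2, at 0.54 and 0.38, were inside the control range. These values are low and the depth is unknown, so the order of single libraries is uncertain. Without the library labelled shRUS 4 the day 5 mean was 32.9% of control, and without library 1 the day 7 mean was 25.2%. The NSC markers *Sox2* and *Nes* were expressed in all groups. Of the 7 NSC markers, 3 were called higher and 2 lower in shRUS on day 5, and 2 and 3 on day 7; *Nes* (−0.87 and −1.19) and *Hes5* (−0.67 and −0.83) were lower and *Vim* (0.55 and 0.17) and *Pax6* (0.25 and 0.20) higher on both days. Markers of other cells moved with the groups: all 6 microglial and all 6 oligodendrocyte lineage markers tested were called lower in shRUS on day 7, and 2 and 4 of them on day 5. The summed microglial level on day 7 lay between 76.2 and 97.6 scaled TPM in shRUS and between 181 and 193 in shCON, and that of the oligodendrocyte lineage between 217 and 236 against 339 and 381. Of the 5 astrocyte markers, *Gfap* alone was called on day 5 (0.60, higher). *Aqp4*, *Aldh1l1*, *S100b* and *Gja1* had values of −0.016, 0.008, 0.027 and 0.097 on that day. On day 7, 2 were called higher, among them *Gfap* (0.35), and 1 lower. The summed level, in which abundant markers weigh most, lay at 4110 to 4271 in shRUS against 3126 to 3262 in shCON on day 5. On day 7 it lay at 1660 to 1865 against 1541 to 1581. The proneural genes *Neurog2* (−1.30) and *Neurod1* (−1.18) were called lower on day 7 and not on day 5 (−0.17 and −0.31). In bulk RNA, fewer cells of a type and less RNA per cell cannot be told apart, and the part of these cells in the results below was not tested. The day 5 library labelled shRUS 4 also stood nearer to the controls than libraries 1 to 3 for several members, and each day 5 call that changed without it is given.

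GC content moved with the comparisons as well. Over 15666 genes, the median deviation of the GC-richest 20% of genes minus that of the GC-poorest 20%, on the log2 scale, lay between −0.06 and 0.18 in the day 5 shCON libraries and between 0.04 and 0.59 in the day 5 shRUS libraries. On day 7 it lay between −0.47 and −0.18 in shCON and between −0.24 and 0.04 in shRUS. The median knockdown difference rose from −0.19 in the poorest to 0.13 in the richest of these groups on day 5, and from −0.04 to 0.16 on day 7. An alternative in which this trend was subtracted from each library gained 4 and lost 3 member calls on day 5 and gained 3 and lost 1 on day 7, each given with its gene below.

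**Figure D1:**
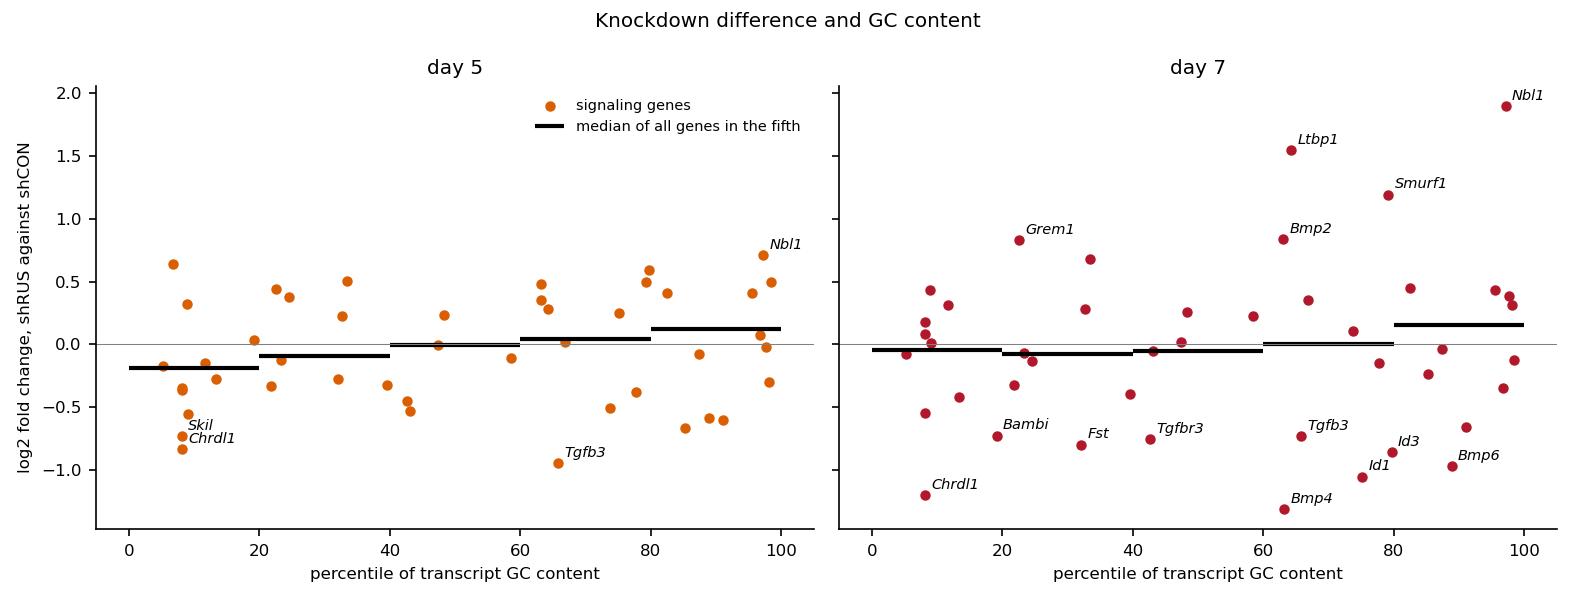
Log2 fold change of shRUS against shCON (y axis) for the signaling genes by the percentile of their transcript GC content among all genes (x axis), with day 5 at the left and day 7 at the right. Black bars give the median of all genes in each 20% of GC content, which runs from −0.19 to 0.13 on day 5, while the members spread from −0.94 for *Tgfb3* to 0.71 for *Nbl1* around it.

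The first question was which components differed after knockdown on each day. On day 5, 8 of 45 members were called higher in shRUS and 13 lower, or 17.8% and 28.9%, beside 14.8% and 17.9% of all 22581 genes tested. On day 7, there were 15 calls upward and 14 downward among the 44 members tested, or 34.1% and 31.8%, beside 23.4% and 25.8% of 24606 genes; *Bmp5* was too low to be tested. The median log2 fold change of the members was −0.07 on day 5 and −0.05 on day 7, and that of all genes −0.06 and −0.03. The calls thus ran in both directions. The day 5 split depended on the scaling: with TPM as deposited, where the median of all genes stood at −0.21, it was 5 higher and 19 lower, and with quantile normalization 12 higher and 7 lower. Without library 1 of the day 5 shCON group it was 5 and 7, and without the library labelled shRUS 4 it was 7 and 15.

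**Figure D2:**
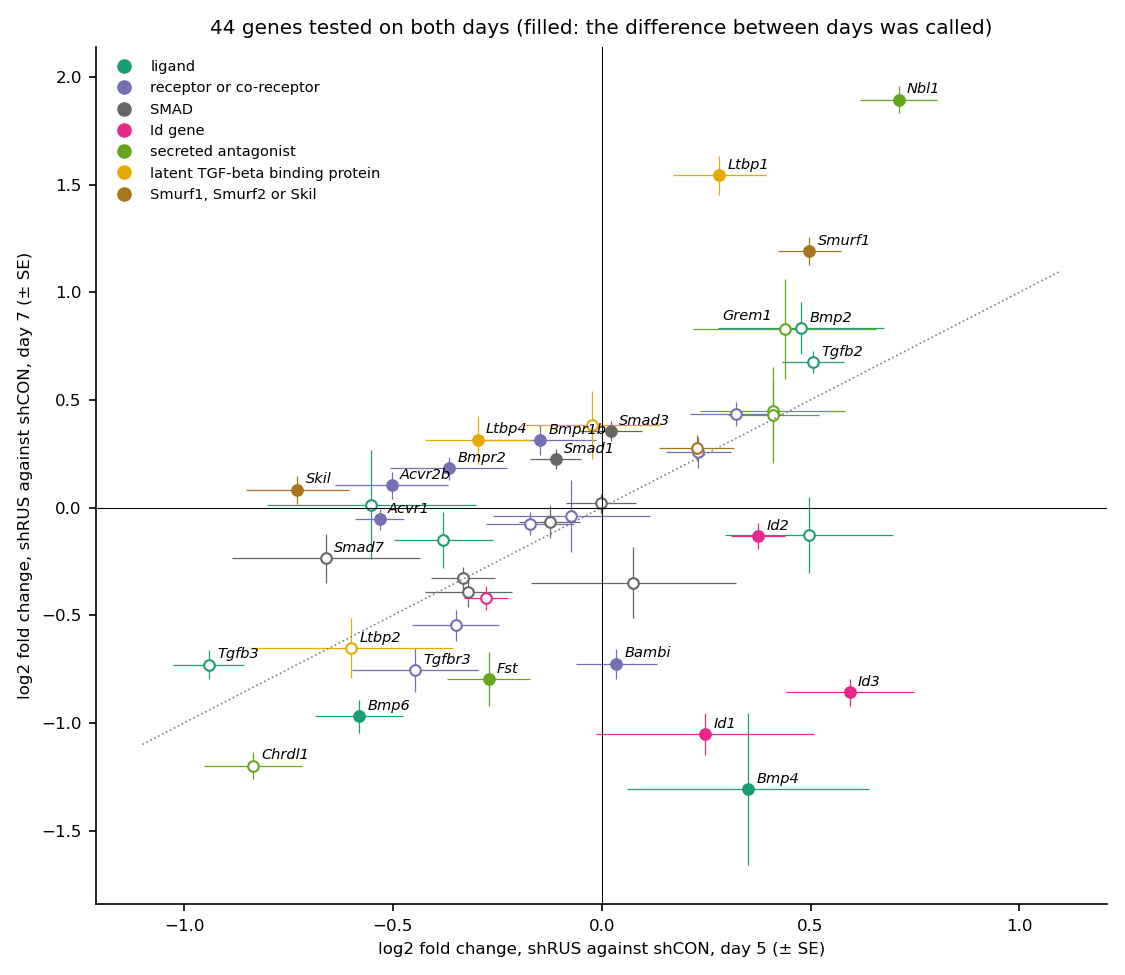
Log2 fold change of shRUS against shCON on day 5 (x axis) and day 7 (y axis) for the 44 members tested on both days, with standard errors; the dotted line marks equal values and filled points are members whose difference between days was called. *Nbl1*, *Ltbp1* and *Smurf1* lie above the line at day 7 values of 1.90, 1.54 and 1.19, and *Bmp4*, *Id1* and *Id3* lie below 0 on day 7 with positive day 5 values.

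The *Id* genes, the direct readout of BMP signaling in many cells, were among the most abundant members, and *Id3* showed a knockdown difference that turned between the days. *Id3* (chr4:136143497-136145755, plus strand, GRCm38) stood at 197, 255, 242 and 269 scaled TPM in the day 5 shCON libraries and at 374, 417, 408 and 265 in shRUS. Its day 7 values were 217, 220, 215 and 187 in shCON and 115, 121, 116 and 105 in shRUS. On day 5 shRUS libraries 1 to 3 were thus above every control and the library labelled shRUS 4 was inside the control range, and on day 7 all shRUS libraries were below every control. *Id3* was called higher on day 5, at a log2 fold change of 0.59 (SE 0.15, adjusted p = 0.0157; without that library 0.75, adjusted p = 0.000847), and lower on day 7, at −0.86 (SE 0.06, adjusted p = 4.76e-06). The day 7 value minus the day 5 value was −1.47 (SE 0.18, adjusted p = 3.16e-05).

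*Id1* (chr2:152736251-152737410, plus strand) was at 83.3, 116, 123 and 156 scaled TPM in shCON and at 163, 173, 161 and 81.2 in shRUS on day 5. Its day 7 values were 81.3, 87.0, 90.6 and 72.5 in shCON and 38.4, 42.4, 44 and 33.6 in shRUS. The day 5 groups overlapped through the library labelled shRUS 4, and the day 7 groups did not overlap. *Id1* was not called on day 5 (0.25, SE 0.26, adjusted p = 0.505), also without the library labelled shRUS 4 (0.51, adjusted p = 0.0534), and was called lower on day 7 (−1.05, SE 0.10, adjusted p = 1.73e-05). The difference between the days, −1.31 (SE 0.30), passed the test with an adjusted p of 0.00417, and with the GC trend subtracted it was −1.26 (adjusted p = 0.00309).

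*Id2* and *Id4* differed from this pattern. *Id2* (chr12:25093799-25097140, minus strand) rose on day 5, from 235 to 265 scaled TPM over the shCON libraries to 297 to 352 over shRUS (0.37, SE 0.06, adjusted p = 0.00205). On day 7 its groups overlapped at 194 to 205 and 165 to 201, and it was not called (−0.13, adjusted p = 0.0984), except without library 1 of shRUS (−0.18, adjusted p = 0.0144). *Id4* (chr13:48261228-48266026, plus strand) was lower in every shRUS library on both days, at 74.4 to 78.7 against 87.3 to 98.8 on day 5 and at 73.0 to 77.7 against 90.2 to 108 on day 7. Its log2 fold changes were −0.28 (SE 0.05, adjusted p = 0.00339) and −0.42 (SE 0.06, adjusted p = 0.000203), and the day 5 call did not pass with the GC trend subtracted (−0.13, adjusted p = 0.148). Between day 5 and day 7 the shRUS libraries lost *Id1*, *Id2* and *Id3*, by −1.81, −0.84 and −1.66 on the log2 scale, while in shCON only *Id2* was called among the 4 (−0.32).

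**Figure D3:**
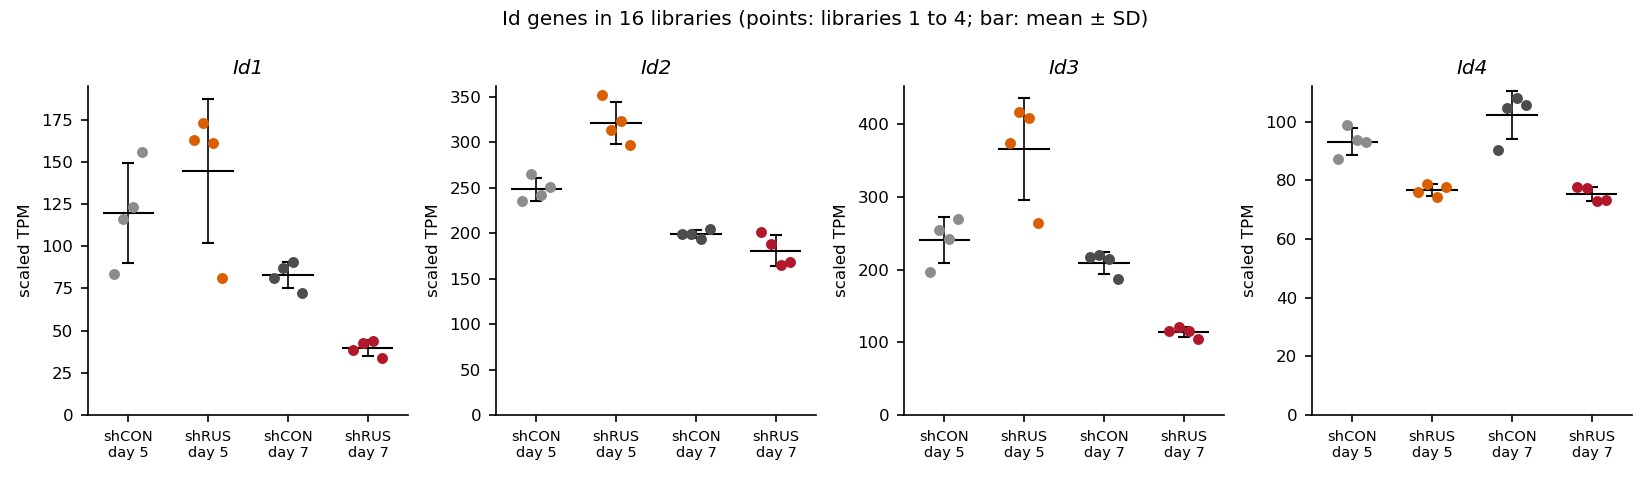
Scaled TPM (y axis, from 0) of *Id1* to *Id4* in the 16 libraries, by shRNA and day; points are libraries 1 to 4 from left to right and bars give mean ± SD (n = 4). *Id1* and *Id3* are highest in day 5 shRUS libraries 1 to 3 and lowest in the day 7 shRUS libraries, while *Id4* is lower in shRUS on both days.

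Sequences are shown for the stretch before the start of members whose transcripts moved in these comparisons, with 2 short motifs in capitals that are known for SMAD binding: GGCGCC, the GC-rich motif bound by BMP-activated SMADs, and CAGAC, which reads as GTCTG on the other strand and holds the core of the SMAD-binding element. The sequences come from RefSeq (GRCm38.p6), and 32 of the 45 members had an entry, *Id1* not among them. They are printed 5′ to 3′ on the strand of the gene. Bases inside any annotated exon were left off, and for *Id2* and *Id3*, whose windows run into exons of longer transcripts, 30 bases around each match are given.
Id4 (chr13:48260866-48261115, plus strand): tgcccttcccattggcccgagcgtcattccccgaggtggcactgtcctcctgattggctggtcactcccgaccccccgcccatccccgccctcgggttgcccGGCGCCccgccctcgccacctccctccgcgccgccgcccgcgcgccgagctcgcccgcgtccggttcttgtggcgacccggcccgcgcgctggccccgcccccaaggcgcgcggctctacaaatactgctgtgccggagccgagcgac
Nbl1 (chr4:139092994-139093220, minus strand): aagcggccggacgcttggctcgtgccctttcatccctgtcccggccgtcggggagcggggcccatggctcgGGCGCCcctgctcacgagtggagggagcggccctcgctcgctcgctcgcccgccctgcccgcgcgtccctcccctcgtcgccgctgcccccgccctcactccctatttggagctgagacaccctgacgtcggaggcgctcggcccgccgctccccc
Smurf1 (chr5:144965848-144966080, minus strand): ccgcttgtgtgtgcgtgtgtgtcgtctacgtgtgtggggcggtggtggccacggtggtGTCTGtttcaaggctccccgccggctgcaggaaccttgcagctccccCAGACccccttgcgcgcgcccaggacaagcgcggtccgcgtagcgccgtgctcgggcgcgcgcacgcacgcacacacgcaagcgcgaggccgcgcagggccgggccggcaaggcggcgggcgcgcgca
Id2 (chr12:25096306-25096335, minus strand): tcaggccccctgGGCGCCcagcgcacactg
Id3 (chr4:136143643-136143672, plus strand): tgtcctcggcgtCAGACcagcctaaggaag
Id3 (chr4:136143742-136143771, plus strand): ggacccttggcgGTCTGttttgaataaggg

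The GGCGCC match began 148 bases before the RefSeq start in *Id4*, 231 in *Id2* and 179 in *Nbl1*. The CAGAC matches began 167 and 68 bases before the start in *Id3* and 192 and 145 in *Smurf1*. Over the 250 bases before the start, GGCGCC was found in 12 of the 32 members with an entry and in 9.59% of all 32851 stretches, and CAGAC in 17 members and 42.2% of all stretches. A member was counted when any of its stretches held the motif, while the share over all stretches takes each stretch by itself. Several members have more than 1 stretch, so the member counts and these shares cannot be compared. The counts describe letters in a window, and binding was not measured.

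Among the 9 ligand genes, *Bmp6* was the most abundant on day 7, and *Bmp6* and *Tgfb3* were called lower and *Tgfb2* higher in shRUS on both days. *Bmp6* (chr13:38345107-38500302, plus strand), which encodes a BMP that signals through SMAD1 and SMAD5, stood at 27.4, 24.0, 25.0 and 32.4 scaled TPM in shCON and at 17.3, 20.1, 18.7 and 16.2 in shRUS on day 5. The day 7 levels were 93.4, 95.1, 93.8 and 82.7 in shCON and 42.8, 51.4, 48.2 and 42.2 in shRUS. Both arms rose over the 2 days and the shRUS libraries stayed below every control library. The log2 fold change was −0.58 (SE 0.11, adjusted p = 0.00277) on day 5 and −0.97 (SE 0.08, adjusted p = 5.93e-06) on day 7.

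*Tgfb3* (chr12:86056745-86079041, minus strand) lay at 11.5, 10.8, 10.7 and 10.7 scaled TPM in shCON and at 5.17, 6.15, 5.13 and 6.13 in shRUS on day 5. On day 7 it lay at 9.67, 8.89, 9.61 and 9.23 against 5.14, 5.54, 5.94 and 5.60. The groups did not overlap on either day, at log2 fold changes of −0.94 (SE 0.09, adjusted p = 7.26e-05) and −0.73 (SE 0.07, adjusted p = 1.52e-05). *Tgfb2* moved the other way, from 24.8 to 29.3 in shCON to 36.5 to 43.5 in shRUS on day 5 and from 15.7 to 17.0 to 24.3 to 27.4 on day 7. Its log2 fold changes were 0.51 (SE 0.07, adjusted p = 0.000935) and 0.68 (SE 0.05, adjusted p = 5.67e-06). *Tgfb2* and *Tgfb3*, whose products use the same receptors, therefore differed in opposite directions.

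*Bmp4*, a BMP ligand with high affinity for BMPR1A, was low on day 5, at 0.38 to 0.52 scaled TPM in shCON and 0.32 to 1.03 in shRUS. On day 7 it stood at 3.21, 2.29, 3.30 and 2.88 in shCON and at 2.09, 0.953, 0.491 and 1.43 in shRUS, so that the groups did not overlap and the shRUS libraries differed widely among themselves. It was called lower on day 7 (−1.31, SE 0.35, adjusted p = 0.0120) and not on day 5 (0.35, SE 0.29, adjusted p = 0.396), with a difference between the days of −1.67 (SE 0.48, adjusted p = 0.0160). All 6 oligodendrocyte lineage markers were called lower on day 7 as well. Of these, *Mbp* (−2.35) and *Olig1* (−0.505) were, like *Bmp4*, not called on day 5 (−0.295 and −0.093). *Mbp* also rose between the days in shCON (2.455). The other 4, among them *Sox10* (−1.49 on day 7) and *Olig2* (−0.69), were called lower on day 5 too (−1.13 and −0.62). The part of those cells was not tested.

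*Bmp2* was called higher on day 7, at 1.51 to 1.74 scaled TPM in shRUS against 0.79 to 0.92 in shCON (0.84, SE 0.12, adjusted p = 0.000302); on day 5 its value was 0.48 (adjusted p = 0.0961), and the difference between the days did not pass (0.34, adjusted p = 0.275). *Bmp7* was called lower on day 5 (−0.38, SE 0.12, adjusted p = 0.0353), a call lost in 10 of 16 alternatives, and had a value of −0.15 (adjusted p = 0.383) on day 7. *Tgfb1*, the TGF-β isoform known from microglia and other immune cells, lay between 1.60 and 4.29 scaled TPM in all 16 libraries, with overlapping groups on both days (0.50 and −0.13, adjusted p = 0.0888 and 0.588); without library 1 of shRUS (0.64, adjusted p = 0.0372) or with quantile normalization it was called higher on day 5. *Inhba*, which encodes a subunit of activin A, stayed between 0.21 and 1.1 and was called on neither day. *Bmp5* lay between 0.17 and 0.52 on day 5 and did not exceed 0.11 on day 7; it was not called on day 5, and called higher with the GC trend subtracted (0.84, adjusted p = 0.0246).

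**Figure D4:**
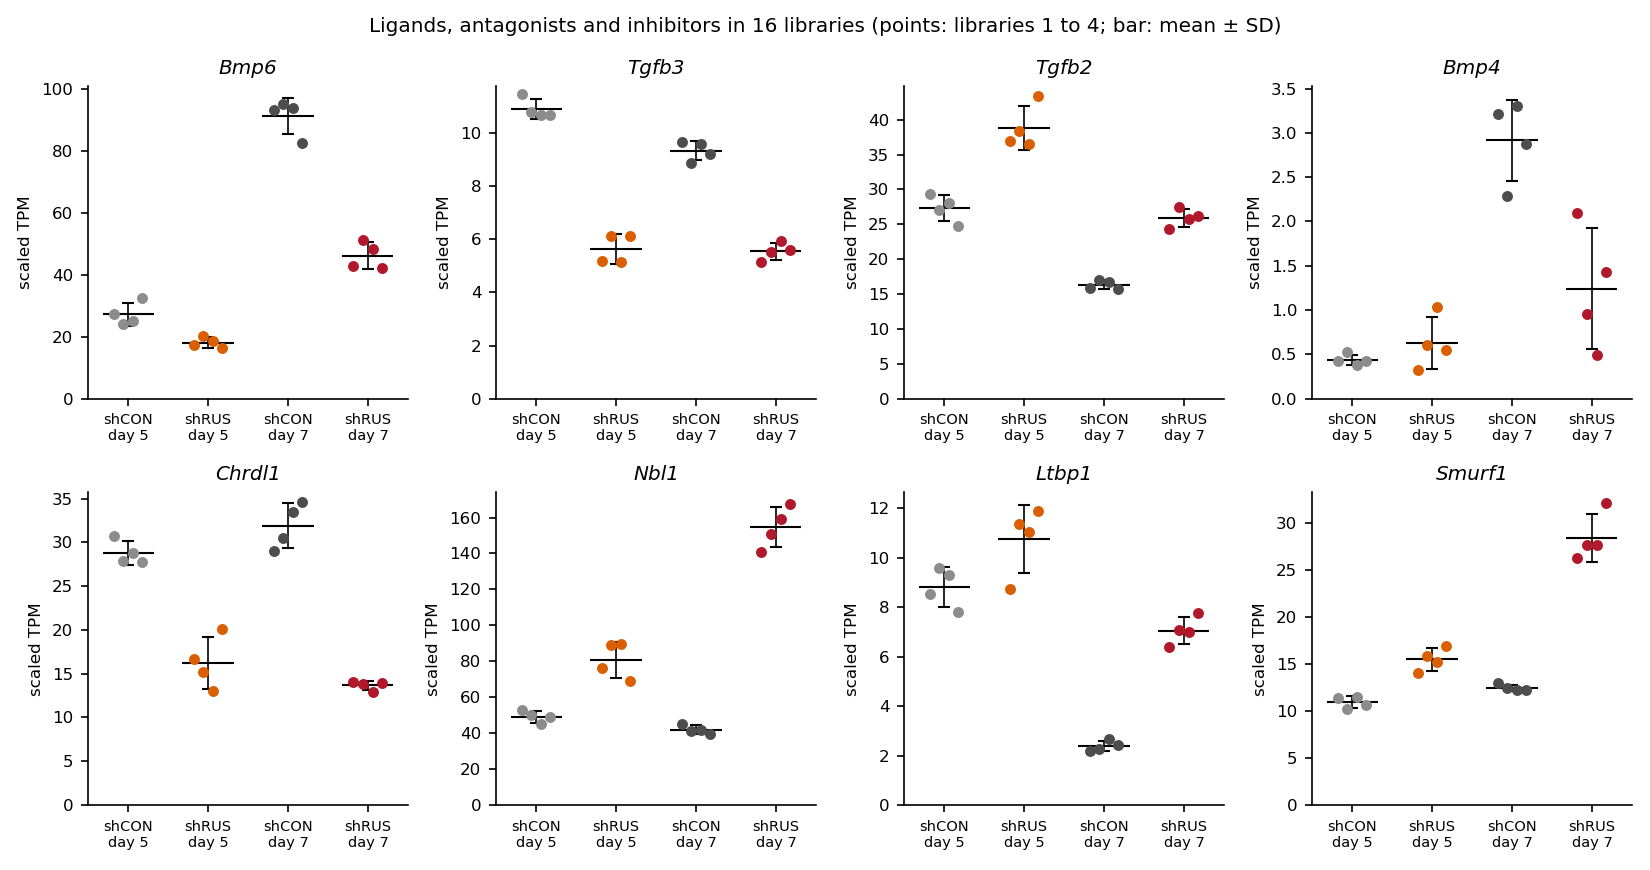
Scaled TPM (y axis, from 0) of 4 ligands (top) and of *Chrdl1*, *Nbl1*, *Ltbp1* and *Smurf1* (bottom) in the 16 libraries; points are libraries 1 to 4 from left to right and bars give mean ± SD (n = 4). *Bmp6* rises in both arms with shRUS below shCON, *Tgfb3* and *Chrdl1* are lower and *Nbl1* and *Smurf1* higher in shRUS on both days.

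Of the 6 secreted antagonists, 2 were called higher and 1 lower on day 5, beside 14.8% and 17.9% of all genes. On day 7, 3 were higher and 2 lower, beside 23.4% and 25.8%. With 6 genes, such counts cannot be told from these shares. The largest value of any member belonged to *Nbl1* (chr4:139082284-139092993, minus strand), which encodes a BMP antagonist of the DAN family. It stood at 52.9, 50.1, 45 and 48.7 scaled TPM in shCON and at 76.2, 88.8, 89.5 and 68.8 in shRUS on day 5, and at 45.3, 41.2, 41.8 and 39.3 against 141, 151, 159 and 168 on day 7. Every shRUS library was above every control library on both days, and the gap was wider on day 7. The log2 fold change was 0.71 (SE 0.09, adjusted p = 0.000482) on day 5 and 1.90 (SE 0.06, adjusted p = 9.68e-08) on day 7, with a difference of 1.17 (SE 0.12, adjusted p = 7.02e-06). *Nbl1* lies at the 97.2 percentile of GC content, and in all 16 alternatives of each day it was called higher, with values of at least 0.54 and 1.68.

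*Chrdl1* (chrX:143285674-143394262, minus strand), which encodes a chordin-like inhibitor of BMP4, moved in the opposite direction. On day 5 it stood at 30.7, 27.9, 28.8 and 27.8 scaled TPM in shCON and at 16.7, 15.2, 13.0 and 20.1 in shRUS. On day 7 it stood at 29.0, 30.5, 33.5 and 34.6 against 14.1, 13.8, 12.9 and 13.9. The shRUS libraries were below all controls on both days, at −0.84 (SE 0.12, adjusted p = 0.000681) and −1.20 (SE 0.06, adjusted p = 5.16e-07).

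The other antagonists were less abundant. *Fst*, which encodes the activin-binding protein follistatin, was at 2.68 to 3.38 scaled TPM in shCON and 1.41 to 1.94 in shRUS on day 7 (−0.80, SE 0.13, adjusted p = 0.000559); on day 5 its value was −0.27 (adjusted p = 0.0668). *Nog*, which encodes noggin, was called higher on day 7 (0.45, SE 0.14, adjusted p = 0.0249) with overlapping groups at 5.70 to 7.77 against 3.91 to 6.05, a call lost without library 1 of shCON (0.45, adjusted p = 0.0532) or library 2, 3 or 4 of shRUS (0.39 to 0.45, adjusted p = 0.0521 to 0.0669), and on day 5 it was not called (0.41, adjusted p = 0.105). *Nog* stood at 5.87, 6.19, 5.81 and 3.76 in the day 5 shRUS libraries, and it was called higher on that day without the library labelled shRUS 4 (0.57, adjusted p = 0.00799) and, with all libraries, under quantile normalization. *Grem1*, which encodes the BMP antagonist gremlin, rose on day 7 from 0.17 to 0.32 in shCON to 0.40 to 0.56 in shRUS (0.83, SE 0.23, adjusted p = 0.0142). At this low level its value depended on the pseudocount, from 0.28 with 1 to 1.05 with 0.01, and 1 of 15 alternatives lost the call. *Chrd*, which encodes chordin, was called higher on day 5 (0.41, SE 0.11, adjusted p = 0.0182) and not with the GC trend subtracted (0.24, adjusted p = 0.109), nor without library 1 of shCON (0.36, adjusted p = 0.0510) or library 2 of shRUS (0.36, adjusted p = 0.0515); its day 7 value was 0.43 (adjusted p = 0.144).

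The latent TGF-β binding proteins were not called on day 5, when *Ltbp2* had a value of −0.60 (adjusted p = 0.0893) and *Ltbp4* of −0.30 (adjusted p = 0.104). Both were called lower on that day with the GC trend subtracted (−0.73 and −0.50, adjusted p = 0.0365 and 0.0473), with TPM as deposited, and without 1 library: library 3 of shRUS for *Ltbp2* (−0.76) and library 3 of shCON for *Ltbp4* (−0.39). On day 7 *Ltbp1*, whose product ties latent TGF-β to the matrix, showed the second largest rise of the members. *Ltbp1* stood at 8.54, 9.59, 9.29 and 7.80 scaled TPM in shCON and at 8.73, 11.4, 11 and 11.9 in shRUS on day 5, and at 2.20, 2.26, 2.66 and 2.42 against 6.41, 7.07, 6.98 and 7.77 on day 7. The control libraries lost most of this transcript between the days and the shRUS libraries a smaller part. In shCON the change from day 5 to day 7 was −1.84 (SE 0.10) and in shRUS −0.60 (SE 0.10), and the knockdown difference was 0.28 (adjusted p = 0.0822) on day 5 and 1.54 (SE 0.09, adjusted p = 1.17e-06) on day 7. Without library 1 of shRUS (0.38, adjusted p = 0.0144) or with quantile normalization it was called higher on day 5 as well. Mesenchymal markers went both ways on day 7: of 5 pericyte and smooth muscle markers 2 were called higher in shRUS and 2 lower, among them *Pdgfrb* (1.32) and *Tagln* (−0.71), and of 4 meningeal fibroblast markers tested 2 were called higher, among them *Col1a1* (1.23), and none lower. *Cspg4* (−0.275) is on both the pericyte and the oligodendrocyte lineage list and was counted in each. Between the days in shCON all 5 pericyte and smooth muscle markers and 3 of the 4 meningeal fibroblast markers were called lower. Their part was not tested. *Ltbp2* was called lower on day 7, at 1.19 to 1.68 against 2.06 to 2.69 (−0.65, SE 0.14, adjusted p = 0.00354). *Ltbp4* was called higher on day 7 (0.32, SE 0.11, adjusted p = 0.0409), a call lost in 9 of 16 alternatives, among them the subtraction of the GC trend (0.11). *Ltbp3*, at 64.3 to 121 scaled TPM the most abundant of the 4, was called on neither day (−0.02 and 0.38, adjusted p = 0.930 and 0.0709), and was called higher on day 7 in 4 of 16 alternatives, among them without library 3 of shCON (0.48) or library 1 of shRUS (0.52) and with only genes at a mean of at least 1 TPM tested.

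The 8 receptor genes differed among themselves. *Bmpr1a*, the type I receptor for BMP2 and BMP4, was the most abundant, at 121, 94.5, 98.9 and 135 scaled TPM in shRUS and 84.4 to 96.0 in shCON on day 5, and at 108 to 125 against 83.6 to 92.8 on day 7. It was called higher on both days (0.32, adjusted p = 0.0488, and 0.44, SE 0.06, adjusted p = 0.000155), the first call being lost in 11 of 16 alternatives, among them without the library labelled shRUS 4 (0.23). *Tgfbr2*, the type II receptor for TGF-β, was called higher on both days at 0.23 (adjusted p = 0.0478, lost in 11 of 16 alternatives, and at 0.18 without the library labelled shRUS 4) and 0.26 (SE 0.07, adjusted p = 0.0141). *Tgfbr1*, its type I partner, was lower in shRUS, at 8.11 to 10.8 against 11.2 to 12.8 on day 5 and at 13.9 to 16.2 against 20.4 to 24.9 on day 7. Its log2 fold changes were −0.35 (SE 0.10, adjusted p = 0.0298), lost in 7 of 16 alternatives, among them the subtraction of the GC trend (−0.16, adjusted p = 0.0819) and leaving out library 1 or 3 of shCON or library 2 or 3 of shRUS (adjusted p = 0.0747 to 0.0816), and −0.55 (SE 0.07, adjusted p = 0.000155). The TGF-β receptor pair thus moved in opposite directions on day 7. Microglia express *Tgfbr1* strongly, and all 6 microglial markers, among them *Csf1r* (−1.29) and *Cx3cr1* (−0.93), were called lower in the same libraries; their part was not tested.

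*Acvr1* and *Acvr2b*, a type I and a type II receptor for BMPs and activins, were called lower on day 5 and not on day 7. *Acvr1* stood at 10.6, 11.3, 10.6 and 10.9 scaled TPM in shRUS against 15.2 to 16.4 in shCON on day 5 (−0.53, SE 0.06, adjusted p = 0.000170), and at 16.3 to 18.3 against 17.3 to 18.3 on day 7 (−0.05, adjusted p = 0.405). *Acvr2b* had values of −0.50 (SE 0.14, adjusted p = 0.0194) and 0.10 (adjusted p = 0.222); with quantile normalization the first was not called (−0.34) and the second was called higher (0.18, adjusted p = 0.0409). The day 5 call was lost in 4 of 16 alternatives, among them without library 1 or 4 of shCON or library 3 of shRUS (−0.46 to −0.43, adjusted p = 0.0530 to 0.0544). For both genes the difference between the days was itself called, at 0.47 and 0.60 (adjusted p = 0.000149 and 0.00572). *Bmpr2* and *Bmpr1b* were called higher on day 7 (0.18 and 0.32, adjusted p = 0.0174 and 0.00432) and had values of −0.37 and −0.15 on day 5. The *Bmpr2* call was lost in 2 of 16 alternatives, among them without library 2 of shRUS (0.17, adjusted p = 0.0505). On day 5, shRUS libraries 2 and 3 were below libraries 1 and 4 in *Bmpr1a*, *Bmpr1b*, *Bmpr2* and *Tgfbr1*, which lie between the 8.1 and 11.6 percentiles of GC content, and these were the libraries with the largest GC difference (0.59 and 0.55). Without the library labelled shRUS 4 (−0.51, adjusted p = 0.00215) or with TPM as deposited, *Bmpr2* was called lower on day 5. *Acvr2a* was called on neither day.

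Of the co-receptors, *Tgfbr3* (betaglycan, which presents TGF-β2) was called lower on both days, at 0.66 to 0.91 against 0.99 to 1.18 scaled TPM on day 5 and at 1.87 to 2.31 against 3.24 to 3.98 on day 7. Its log2 fold changes were −0.45 (adjusted p = 0.0472, lost in 10 of 15 alternatives) and −0.76 (SE 0.10, adjusted p = 0.000221). *Bambi*, a pseudoreceptor that lacks the kinase domain and is itself induced by BMP signaling, stood at 10.3, 9.69, 10.0 and 10.1 in shCON and at 6.16, 5.94, 6.48 and 5.34 in shRUS on day 7 (−0.73, SE 0.07, adjusted p = 2.22e-05). On day 5 its groups overlapped (0.04, adjusted p = 0.819), so that the values of the days differed by −0.77 (SE 0.12, adjusted p = 0.000215). *Bambi* thus shared with *Id1* a called fall on day 7 without a call on day 5. *Eng*, an endothelial co-receptor, lay between 0.49 and 0.86 and was called on neither day.

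Among the receptor-regulated SMAD genes, *Smad5* was called lower on both days, at 32.9 to 40.2 against 43.1 to 48.6 scaled TPM and at 40.7 to 46.1 against 52.7 to 59.7. The log2 fold changes were −0.33 (SE 0.08, adjusted p = 0.00966) and −0.33 (SE 0.05, adjusted p = 0.000585). *Smad9* was called lower on both days as well (−0.32, adjusted p = 0.0422, lost in 10 of 16 alternatives, and −0.39, SE 0.07, adjusted p = 0.00134). *Smad1* and *Smad3* were called higher on day 7 alone, at 33.4 to 38.2 against 29.8 to 30.7 (0.23, SE 0.05, adjusted p = 0.00306) and at 19.0 to 19.4 against 14.4 to 16.1 (0.36, SE 0.05, adjusted p = 0.000147), and for both the difference between the days was called (0.32 and 0.32, adjusted p = 0.00438 and 0.00943). The 3 SMAD genes of the BMP branch therefore did not move together. *Smad2* and the shared partner *Smad4* were called on neither day, except *Smad2* on day 5 with TPM as deposited (−0.28) or without the library labelled shRUS 4 (−0.18), where it was lower, and *Smad4* had values of −0.002 and 0.02. The inhibitory *Smad7* was called lower on day 5 (−0.66, SE 0.23, adjusted p = 0.0499, lost in 11 of 16 alternatives), at 1.80, 1.57, 2.17 and 3.21 in shRUS against 2.80 to 4.38 in shCON, and had a value of −0.24 (adjusted p = 0.117) on day 7, which passed with the GC trend subtracted (−0.36, adjusted p = 0.0305) and without library 4 of shCON (−0.31). *Smad6*, which inhibits the BMP branch, was not called (0.08 and −0.35, adjusted p = 0.843 and 0.111), and on day 7 was called lower once the GC trend was subtracted (−0.57, adjusted p = 0.00541) or library 4 of shCON left out (−0.49).

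*Smurf1* (chr5:144876495-144965847, minus strand) encodes a ubiquitin ligase that targets SMAD1 and SMAD5 and the receptors. It stood at 11.4, 10.3, 11.5 and 10.6 scaled TPM in shCON and at 14.0, 15.9, 15.3 and 16.9 in shRUS on day 5, and at 13.0, 12.4, 12.2 and 12.3 against 26.3, 27.6, 27.7 and 32.2 on day 7. All shRUS libraries were above all controls on both days. The log2 fold change was 0.50 (SE 0.08, adjusted p = 0.00109) and 1.19 (SE 0.06, adjusted p = 7.33e-07), with a difference between the days of 0.68 (SE 0.10, adjusted p = 0.000133). Its relative *Smurf2* was called higher on day 7 (0.28, SE 0.06, adjusted p = 0.00370) and had a value of 0.23 (adjusted p = 0.0846) on day 5, which passed with the GC trend subtracted (0.31, adjusted p = 0.00652) and without library 3 of shRUS (0.30). *Skil*, which encodes the SMAD2 and SMAD3 co-repressor SnoN, stood at 5.10, 3.93, 4.22 and 5.65 in shRUS against 7.34 to 8.91 in shCON on day 5 (−0.73, SE 0.12, adjusted p = 0.00195). On day 7 it stood at 15.4 to 18 against 14.7 to 17.3 (0.08, adjusted p = 0.335; with the GC trend subtracted 0.17, adjusted p = 0.0199), so that the values of the days differed by 0.80 (SE 0.15, adjusted p = 0.000826).

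The second question was how the components changed from day 5 to day 7, after bFGF withdrawal. The 2 days are held in separate tables, so day and any step that differed between the tables cannot be told apart. In shCON, 20 of 45 members were called higher on day 7 and 11 lower, beside 26.9% and 21.6% of 23789 genes tested, with a member median of 0.19 and a median over all genes of 0.07. In shRUS, 23 were called higher and 10 lower, beside 35.0% and 25.8%, with medians of 0.26 and 0.13. Of the receptors, 6 of 8 in shCON and 7 of 8 in shRUS were called higher, among them *Acvr2b* (1.04 and 1.63) and *Acvr2a* (0.85 and 0.94). Of the 8 receptors 5 lie in the GC-poorest 20% of genes, of which 40.5% were called higher in shCON and 52.5% in shRUS. With the GC trend subtracted, *Acvr1* in shCON (0.12) and *Bmpr1b* in shRUS (0.10) lost their calls, and *Bmpr1b* in shCON (−0.27) and *Bmpr1a* in shCON (−0.23) and in shRUS (−0.23) were called lower. Over all members this subtraction gained 4 and lost 6 calls in shCON and gained 6 and lost 3 in shRUS. In shCON, *Bmp4* (2.48), *Bmp6* (1.75) and *Tgfbr3* (1.64) were among those that rose most, with the value of the low *Bmp4* at 1.44 under a pseudocount of 1, and *Ltbp1* (−1.84) and *Chrd* (−1.01) were among those that fell most. In shRUS, *Skil* (1.81) and *Acvr2b* rose most and *Id1* (−1.81) and *Id3* (−1.66) were among those that fell most. The fall of the low *Bmp5* depended on the pseudocount, from −3.44 with 0.01 to −0.41 with 1 in shRUS. With TPM as deposited, which moved the median of all genes to 0.21 in shCON and 0.42 in shRUS, the shRUS split was 32 higher and 8 lower.

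**Figure D5:**
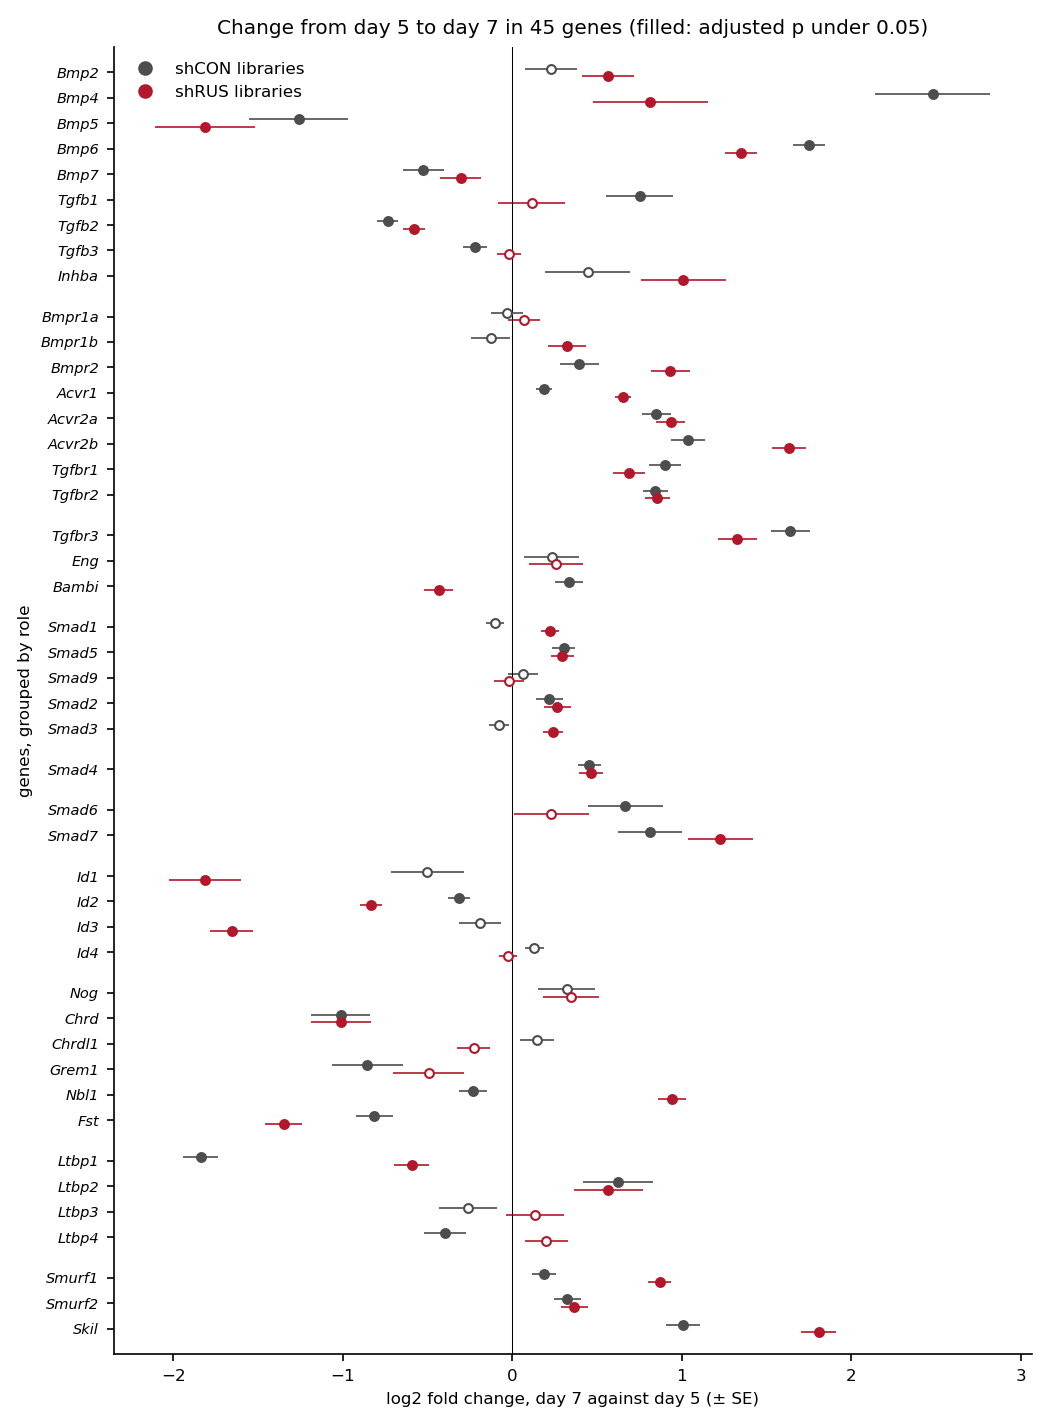
Log2 fold change of day 7 against day 5 (x axis) for the 45 members in shCON (grey) and shRUS (red) libraries, with standard errors, grouped by role; filled points passed an adjusted p of 0.05. *Bmp4* and *Ltbp1* stand out in shCON at 2.48 and −1.84, and *Nbl1*, *Id1* and *Id3* lie far apart between the arms.

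The third question was whether the knockdown difference itself changed between the days. It was more positive on day 7 for 11 members and more negative for 7, beside 15.2% and 14.6% of all genes. With the GC trend subtracted *Tgfbr1* (−0.33), *Id4* (−0.23), *Chrdl1* (−0.50) and *Ltbp3* (0.42) passed as well, and without the library labelled shRUS 4 the counts were 13 and 8. With TPM as deposited the split was 13 and 5. The positive group held *Ltbp1* (1.25, adjusted p = 2.14e-05), *Nbl1*, *Skil*, *Smurf1*, *Ltbp4* (0.60, adjusted p = 0.0176), *Acvr1*, *Acvr2b*, *Bmpr2* (0.54, adjusted p = 0.0194), *Bmpr1b*, *Smad1* and *Smad3*. The negative group held *Bmp4*, *Id3*, *Id1*, *Bambi*, *Fst* (−0.54, adjusted p = 0.0165), *Id2* (−0.52, adjusted p = 0.000640) and *Bmp6*. The negative group included 3 of the 4 *Id* genes and *Bambi*, and the positive group 4 of the 8 receptors. The values for *Bmpr1b* (0.45, adjusted p = 0.0433) and *Bmp6* (−0.40, adjusted p = 0.0332) lost their call in 16 and 13 of 24 alternatives.

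A list of 98 other genes of both pathways was read beside the members. On day 5, the 76 tested gave 12 calls upward and 22 downward, beside 14.8% and 17.9% of all genes, and on day 7 the 79 tested gave 24 and 22, beside 23.4% and 25.8%, with medians of −0.09 and −0.10. Among 9 of them called higher on both days with a mean of at least 1 TPM, the 6 with the largest mean log2 fold change over the 2 days were *Rgma*, *Atoh8*, *Htra1*, *Dand5*, *Fstl3* and *Ppm1a*. *Rgma*, a BMP co-receptor, had values of 0.46 and 1.17 (adjusted p = 0.00477 and 1.10e-06), and *Atoh8*, a bHLH gene known as a BMP target, 0.76 and 0.65 (adjusted p = 0.000433 and 7.12e-06). *Atoh8* therefore did not share the day 7 fall of *Id1* and *Id3*. *Ppm1a*, a phosphatase that acts on SMADs, had values of 0.53 and 0.52.

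Of 12 such genes called lower on both days, *Bmp3* (−1.57 and −1.83), *Bmper* (−1.07 and −1.49), *Tgfbi* (−0.79 and −1.65), *Itgb8* (−1.46 and −0.83), *Pmepa1* (−1.40 and −0.76) and *Crim1* (−0.89 and −0.87) had the most negative mean log2 fold changes over the 2 days. *Tgfbi* and *Pmepa1* are known as TGF-β targets, *Itgb8* encodes an integrin subunit that activates latent TGF-β, and *Bmper* and *Crim1* encode secreted or membrane proteins that bind BMPs. The transcriptional targets on this list, *Atoh8* and *Tgfbi* among them, went both ways: 3 of 11 passed upward and 5 downward on day 7, and 2 and 5 of 10 on day 5.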

How the data were processed

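RNA-seq was analysed in 16 libraries of NSC, 4 each for shCON and shRUS on day 5 and day 7, grouped by the submitters' labels. The authors aligned reads with STAR to mm10 and estimated expression with RSEM (GRCm38 annotation); TPM values, 1 table per day, were deposited with the same total in each library. Read depth, and whether counting used strand, are not given in the sources used here, so no count model was run. Supplied reference annotation was GENCODE vM21.

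Each library was divided by its median ratio to the geometric mean over genes with at least 1 TPM in all libraries of the fit. Genes with a mean of at least 0.1 were tested on log2(scaled TPM + 0.1) with limma 3.58.1 (mean-variance trend, R 4.3.3), per day for the knockdown and over 16 libraries for day and for the difference between days, on the 55365 lines that pair between the tables. The script was tested on simulated data. The replicate numbers were not used as pairs. Alternatives were other pseudocounts, filters and scalings, a replicate block and leaving out each library; GC adjustment (transcript GC, 97.7% of genes matched) was added after seeing the data. Named are all members, *Gm20754*, and other pathway genes called in 1 direction on both days with a mean of at least 1 TPM, the 6 largest each way. The members and lists were chosen with earlier results of these data known. Python 3.11.15, pandas 2.3.3 and matplotlib 3.10.9 drew figures.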

Additional observations from a re-analysis of the deposited data

Results flagged for a closer look

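Over 180 sets of 4 libraries (45 members in 4 groups), 6 held a library that stood apart from the other 3 by Dixon's criterion, where chance gives about 1 in 20. The day 5 library labelled shRUS 4 was low for *Id1*, at 81.2 scaled TPM against 161 to 173, and for *Nog*, at 3.76 against 5.81 to 6.19. Library 4 of the day 7 shCON group was low for *Bmp6*, at 82.6 against 93.4 to 95.1, and for *Id3*, at 187 against 215 to 220. In the day 5 shCON group, library 1 was high for *Tgfb3* (11.5 against 10.7 to 10.8) and library 3 for *Bmp5* (0.309 against 0.170 to 0.177).

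For 18 members the log2 fold change of shRUS against shCON differed between day 7 and day 5 by the limma test of that difference. The value on day 7 was higher by 1.25 for *Ltbp1*, 1.17 for *Nbl1*, 0.80 for *Skil*, 0.68 for *Smurf1*, 0.60 for *Ltbp4*, 0.60 for *Acvr2b*, 0.54 for *Bmpr2*, 0.47 for *Acvr1*, 0.45 for *Bmpr1b*, 0.32 for *Smad1* and 0.32 for *Smad3*. For the other 7 the difference was −1.67 for *Bmp4*, −1.47 for *Id3*, −1.31 for *Id1*, −0.77 for *Bambi*, −0.54 for *Fst*, −0.52 for *Id2* and −0.40 for *Bmp6*. Of the 18, *Bmp6*, *Bmpr1b* and *Fst* lost the call under at least 1 alternative, and the other 15 were called in all alternatives run for them.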

How the results depend on the processing

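Over all single-member values, 4221 of 4642 kept their direction and their side of the threshold, 207 lost a call, 91 gained one, 117 uncalled values changed sign and 6 reversed. Of the day 5 calls 11 of 21 held under all alternatives, and of the day 7 calls 25 of 29. The day 5 counts moved most. Members called higher on day 5 numbered 8, and 5 with TPM as deposited; members called lower numbered 13, and 7 with quantile normalization. Leaving out a library gave 5 to 9 higher and 7 to 15 lower, with both lowest counts reached without library 1 of the day 5 shCON group. The other counts stayed within 1.5 times. The reversed values all belong to the change between the days in shRUS: with TPM as deposited it was 0.006 for *Bmp7*, 0.30 for *Tgfb3*, 0.30 for *Smad9* and 0.30 for *Id4*, with quantile normalization 0.15 for *Id4*, and with the GC adjustment −0.23 for *Bmpr1a*. TPM as deposited carries no library factor, and the cause of the other changes was not tested. With the replicate block, day 5 counts were 5 higher and 8 lower and day 7 counts 13 and 14; on day 7 *Bmpr2*, *Grem1* and *Ltbp4* lost their calls (adjusted p = 0.0540, 0.0508 and 0.0834) and *Ltbp3* gained one (adjusted p = 0.0270). Deviations of same-numbered libraries correlated at −0.25 to −0.02 on day 5 and at 0.02 to 0.10 on day 7. These few values cannot decide whether the numbers pair the libraries. Depth is unknown, so its limit cannot be given.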
